A study of Mus musculus with 12 samples.

Results

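The genes described here encode the neuronal microtubule and its partners: 5 alpha-tubulins, 7 beta-tubulins, gamma- and delta-tubulin, 9 classical microtubule-associated proteins (MAPs), 3 end-binding proteins of growing plus ends and 3 CAMSAP proteins of minus ends. They also include 4 stathmins, 3 genes of the doublecortin family, 5 collapsin response mediator proteins (CRMPs) and the 4 intermediate filament genes Nefl, Nefm, Nefh and Ina. They were taken by gene name and not by a cutoff on their values, but the list was chosen with earlier results of these data known. All 45 names were found among the 51912 genes of the deposited table. The cells were primary neurons from the cortices of C57BL/6J mouse embryos at E17.5, freed of meninges, dissociated with trypsin, plated in serum and moved to Neurobasal medium with B27. The 12 libraries formed 4 groups of 3, namely erinacine S at 1 µg/mL for 48 h, DMSO for 48 h, erinacine S at 1 µg/mL for 16 h and DMSO for 16 h. Erinacine S is a terpenoid of the mushroom Hericium erinaceus, and DMSO is its solvent. The labels describe replicates as independent but name no litter, dish or day. The p-values here therefore measure no more than how far these particular libraries differ, and that spread may be technical.

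Microtubules are polymers of alpha- and beta-tubulin dimers that grow and shrink mainly at their plus ends. In neurons they fill axons and dendrites, where MAPs such as tau (Mapt) bind the polymer wall, end-binding proteins follow growing tips and stathmins hold free dimers back from assembly. Neurofilaments are a separate network of intermediate filaments that supports the axon, and their subunits appear in sequence as a neuron matures, with alpha-internexin (Ina) early and the heavy chain (Nefh) late.

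Expression was deposited as TPM, an abundance per transcript length that sums to a fixed total per library, so the levels of different genes can be compared but the read depth is unknown. Together the 45 genes took 3.81% to 5.29% of all TPM in a library. Their sums were 52890, 51380 and 51250 TPM with erinacine S and 52660, 50590 and 50740 TPM with DMSO at 48 h. At 16 h they were 47440, 39970 and 38610 TPM with erinacine S and 41030, 43580 and 38120 TPM with DMSO. Every 48 h library lay above every 16 h library, and the treatments overlapped at both times. Tests used limma on log2(TPM + 1) for the 15623 genes with a mean of at least 1 TPM, adjusted over all of them, with calls at an adjusted p of 0.05 or less. Of the 45 genes, 44 passed that filter. Tuba8, a minor alpha-tubulin, averaged 0.0612 TPM, was listed at 0 in 5 libraries and was not tested.

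The cells showed neuronal markers, and those of interneurons, progenitors and glia as well. The 5 interneuron markers summed to 377.9 to 512.3 TPM with erinacine S and 411.9 to 488.7 TPM with DMSO at 48 h. At 16 h these interneuron sums were 435.1 to 576.1 TPM and 441.2 to 648.3 TPM. The 6 neuronal markers summed to 1151 to 1319 TPM in the erinacine S and 1105 to 1212 TPM in the DMSO libraries at 48 h, and to 1427 to 1536 TPM and 1359 to 1498 TPM at 16 h. Markers of radial glia and intermediate progenitors, 8 of 8 above the filter, summed to 718.7 to 766.7 TPM in DMSO at 48 h and 461.7 to 566 TPM in DMSO at 16 h. Replicate 1 of the 48 h erinacine S group stood apart, with 243.8 TPM for these progenitor markers against 764.2 and 793.8 TPM in replicates 2 and 3. It was also lowest of all 12 libraries for the 7 astrocyte markers (42.87 TPM), the 6 markers of dividing cells (128.9 TPM) and the 7 microglial markers (1.475 TPM). In such bulk samples fewer cells of a type and less RNA per cell cannot be told apart. Some marker sums lay lower in all 3 erinacine S libraries than in the DMSO libraries at 48 h. They were 1.475 to 12.9 TPM with erinacine S and 21.93 to 30.59 TPM with DMSO for microglia, and 47.35 to 169.7 TPM and 181.8 to 212.7 TPM for the oligodendrocyte lineage. Dividing-cell markers summed to 128.9 to 229.9 TPM with erinacine S and 232 to 245.9 TPM with DMSO, and endothelial, mural and meningeal markers to 1.154 to 2.561 TPM and 2.706 to 3.561 TPM. Some values that rest on replicate 1 are given with and without it, and others, such as the shares within classes, with it only.

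Several tubulins are nearly the same gene at the level of reads, which limits what their separate values mean. The coding sequences of Tuba1a and Tuba1b differ at 23 of 1353 bases, and those of Tubb2a and Tubb2b at 47 of 1335. Of all 50-base words in its annotated transcripts (GENCODE M21), Tuba1a shares 72.9% with other genes, Tuba1b 73.8%, Tuba1c 61.0%, Tubb2a 49.6% and Tubb2b 39.3%. Tubb4b shares 50.9%, most of it with the pseudogene Tubb4b-ps1, Stmn1 shares 25.5% and Tubg1 shares 14.1%, nearly all with Tubg2. How reads that fit several genes were shared out is not given in the sources used here, so the split within these sets is uncertain. Tubb3, Mapt, Map1a, Map1b, Map2, Stmn2, Dpysl2 and Nefl share no such word with another gene.

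Promoter sequence is shown for 4 of the genes that were higher at 48 h under both treatments, the MAPs Map1a and Map1b and the beta-tubulins Tubb2a and Tubb4b. Each is the 250 bases before the RefSeq transcript start on GRCm38.p6, 5′ to 3′ on the gene's strand. Capitals mark the GC box (GGGCGG), the CCAAT box, the TATA box (TATAAA) and the core of the cAMP response element (TGACG) on either strand, and neighbouring matches can overlap.
Map1a, chr2:121289352-121289601, plus strand: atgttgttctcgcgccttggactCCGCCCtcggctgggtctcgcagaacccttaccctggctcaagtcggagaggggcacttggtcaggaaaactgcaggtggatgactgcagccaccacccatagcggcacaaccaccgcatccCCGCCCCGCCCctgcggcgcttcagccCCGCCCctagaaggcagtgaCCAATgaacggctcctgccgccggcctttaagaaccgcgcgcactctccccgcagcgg
Map1b, chr13:99516603-99516852, minus strand: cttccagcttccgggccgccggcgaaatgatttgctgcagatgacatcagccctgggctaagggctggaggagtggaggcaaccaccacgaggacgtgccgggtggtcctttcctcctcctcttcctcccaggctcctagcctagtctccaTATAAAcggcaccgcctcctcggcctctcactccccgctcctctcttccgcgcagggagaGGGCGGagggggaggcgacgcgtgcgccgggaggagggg
Tubb2a, chr13:34078009-34078258, minus strand: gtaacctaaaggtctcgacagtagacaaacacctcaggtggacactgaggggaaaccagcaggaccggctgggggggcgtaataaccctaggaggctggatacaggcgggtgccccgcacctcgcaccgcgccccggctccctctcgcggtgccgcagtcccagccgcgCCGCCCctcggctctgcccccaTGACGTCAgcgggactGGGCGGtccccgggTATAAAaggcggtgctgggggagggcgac
Tubb4b, chr2:25224703-25224952, minus strand: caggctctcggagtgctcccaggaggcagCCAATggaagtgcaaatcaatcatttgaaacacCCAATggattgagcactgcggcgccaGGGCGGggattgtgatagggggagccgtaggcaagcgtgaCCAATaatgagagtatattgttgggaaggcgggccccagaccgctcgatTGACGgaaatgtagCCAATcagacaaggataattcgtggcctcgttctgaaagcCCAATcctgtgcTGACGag
Map1a has 4 GC boxes and 1 CCAAT, Map1b has 1 GC box and 1 TATAAA, and Tubb2a has 2 GC boxes, 1 TATAAA and a palindrome that counts as 2 TGACG. Tubb4b has 5 CCAAT, 1 GC box and 2 TGACG. These 4 are examples and do not stand for the other genes. Tubb4a, also called higher under both treatments, has 2 TGACG but no GC box, CCAAT or TATAAA. RefSeq promoters were matched for 29 of the 45 genes, 36 promoters in all. GGGCGG was in 21 of these 36 and in 32.7% of all 32851 promoters, CCAAT in 12 and 33.8%, TATAAA in 5 and 12.4%, and TGACG in 10 and 17.8%. Some genes have several promoters, and those of Map7d1 and of Dcx overlap, so the same letters can be counted more than once. These counts describe letters in the sequence, and a match is not evidence of binding.

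Most calls among these genes came with time in culture. With erinacine S, 25 of the 44 tested genes were higher at 48 h than at 16 h, 1 was lower and 18 did not pass. Among all 15623 tested genes 15.1% were called higher and 15.5% lower in this comparison. With DMSO, 24 were higher, none was lower and 20 did not pass, against 16.1% of all tested genes called higher and 16.6% lower. The median log2 fold change of the 44 genes was 0.33 with erinacine S and 0.36 with DMSO, where that of all tested genes was -0.03 in each. The 48 h libraries lay wholly above the 16 h libraries for 30 genes with erinacine S (21.2% of all tested genes) and for 35 with DMSO (24.1%). In all, 22 genes were called higher in both, out of 25 and 24. The 2 comparisons share no library, but they share the fit's estimate of each gene's spread, so their calls are not independent. Mapre3, Stmn3 and Dcx were called only with erinacine S and Map7 and Mapre1 only with DMSO, but no gene of the 44 passed the test of a difference between the treatments.

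**Figure D1:**
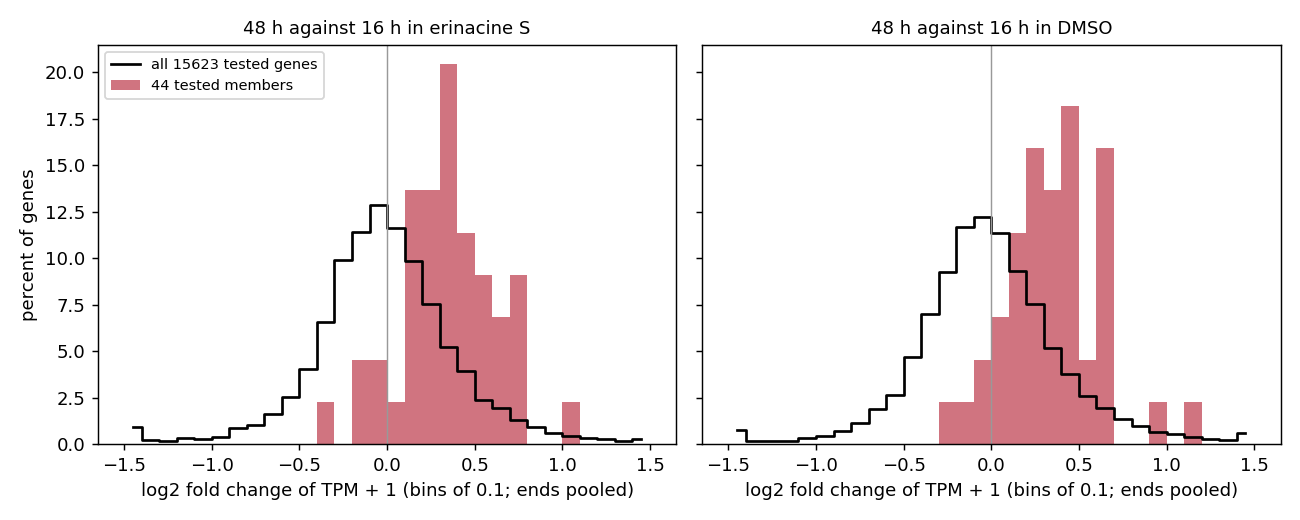
Distribution of log2 fold changes of TPM + 1 at 48 h against 16 h, in percent of genes per bin of 0.1, with erinacine S on the left and DMSO on the right. Filled bars are the 44 tested microtubule and neurofilament genes and the line is all 15623 tested genes; the bars have medians of 0.33 and 0.36 and the line a median of -0.03 in each panel.

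Cell type markers differed with time as well, in both directions within the neuronal list. The neuronal marker sum was lower in every 48 h library than in every 16 h library under both treatments. Within that list of 6, Rbfox3 and Syt1 were called higher and Neurod6 lower under both treatments, and Tbr1 was called lower with DMSO. The progenitor marker sum was higher at 48 h in DMSO, where Hes1 and Fabp7 were called higher and Eomes lower, while with erinacine S Pax6, Vim and Eomes were called lower. With erinacine S at 48 h the progenitor sum was 243.8 TPM in replicate 1 and 764.2 and 793.8 TPM in replicates 2 and 3. At 16 h it was 429.9 to 524.5 TPM, so only replicate 1 lay below that range and the other replicates lay above it. The marker calls are given with replicate 1 only, and whether the calls of Pax6, Vim and Eomes hold without it was not tested. Astrocyte markers summed to 91.89 to 106.4 TPM in DMSO at 48 h and 44.24 to 60.59 TPM in DMSO at 16 h, and oligodendrocyte lineage markers to 181.8 to 212.7 TPM and 45.99 to 94.14 TPM. Their part in the time differences was not tested. Without replicate 1 of the 48 h erinacine S group, 20 genes of the set were called higher with erinacine S and 30 with DMSO, in fits that called 4025 and 5993 of all tested genes in either direction. Without replicate 2 of the 16 h erinacine S group 15 were called higher with erinacine S, where 3105 of all tested genes were called. With all libraries 4783 and 5107 were called. Whether the 16 h and 48 h dishes came from the same preparations is not given, so time in culture and preparation cannot be told apart.

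Alpha-tubulins dominated the set. Tuba1a, the main alpha-tubulin of young neurons (ENSMUSG00000072235, chromosome 15, 98949841 to 98953551), was the most abundant of the 45 genes. With erinacine S, Tuba1a stood at 18208, 17533 and 17970.3 TPM at 48 h, against 18734, 14259 and 13098 TPM at 16 h. In DMSO the values were 18780, 17673 and 17384 TPM at 48 h, against 14600.2, 16402 and 12846 TPM at 16 h. One 16 h erinacine S library was as high as the 48 h libraries, and the groups overlapped with erinacine S and did not overlap with DMSO. The log2 fold change was 0.24 ± 0.16 with erinacine S and 0.30 ± 0.16 with DMSO (SE), and neither passed (limma, adjusted p = 0.268 and 0.156).

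Tuba1b, a widely expressed alpha-tubulin (ENSMUSG00000023004, chromosome 15, 98931425 to 98934565), was higher at 48 h under both treatments. Tuba1b levels with erinacine S were 2754, 2561 and 2654 TPM at 48 h, against 2155, 1881 and 1827 TPM at 16 h. The DMSO libraries had 2795, 2717 and 2662 TPM at 48 h, against 1762, 1903 and 1799 TPM at 16 h. All 48 h libraries lay above all 16 h libraries. The log2 fold change was 0.45 ± 0.08 with erinacine S (SE; limma, adjusted p = 0.00215) and 0.58 ± 0.08 with DMSO (adjusted p = 0.000399). Tuba1c was also called higher in both, by 0.40 and 0.30 on the log2 scale, although its DMSO call was lost in the fits without any 1 of 9 libraries. The Tuba1c call with erinacine S was lost in 2 such fits. Its DMSO call was also lost without the filter and with mitochondrially encoded genes left out of the TPM. Tuba4a, an alpha-tubulin encoded without the usual terminal tyrosine, averaged 6.51 ± 0.353 TPM with erinacine S at 48 h and 5.96 ± 2.25 TPM with erinacine S at 16 h (SD, n = 3 each), and was not called in either comparison. Since these genes share most of their sequence, their sum depends less on the split of reads between them. It was 21490, 20690 and 21200 TPM with erinacine S at 48 h, against 21410, 16510 and 15330 TPM with erinacine S at 16 h. In DMSO it was 22120, 20890 and 20600 TPM at 48 h, against 16800, 18710 and 15100 TPM at 16 h. Replicate 1 of the 16 h erinacine S group was the 1 library of that time within the 48 h range, and without it the log2 ratio of the sums with erinacine S was 0.41 in place of 0.25.

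Among the 7 beta-tubulins, Tubb2a, Tubb3, Tubb4a and Tubb4b were higher at 48 h under both treatments, and Tubb2b, Tubb5 and Tubb6 were not called. Tubb2a, a neuronal beta-tubulin (ENSMUSG00000058672, chromosome 13, 34074274 to 34078007), changed most. The erinacine S libraries had 2482, 2262 and 2277 TPM of Tubb2a at 48 h, against 1898, 1369.7 and 1222 TPM at 16 h. With DMSO they were 2513, 2201 and 2382 TPM at 48 h, against 1429, 1771 and 1245 TPM at 16 h. The times did not overlap under either treatment, and the log2 fold changes were 0.67 ± 0.16 with erinacine S and 0.69 ± 0.16 with DMSO (SE; limma, adjusted p = 0.00800 and 0.00643).

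Tubb3, the beta-tubulin used as a marker of neurons (ENSMUSG00000062380, chromosome 8, 123411424 to 123422015), was also higher at 48 h. With erinacine S, Tubb3 stood at 2557, 2842 and 2924 TPM at 48 h, against 2385, 1857 and 1667 TPM at 16 h. In DMSO the values were 3239, 2826 and 2799 TPM at 48 h, against 1889.6, 2357 and 1595 TPM at 16 h. No 16 h library reached the 48 h range of its own treatment, and the log2 fold changes were 0.51 ± 0.15 with erinacine S and 0.62 ± 0.15 with DMSO (SE; limma, adjusted p = 0.0260 and 0.01001). The erinacine S call was lost without replicate 2 or 3 of the 16 h or of the 48 h group, where the log2 value was 0.40 at its lowest. That call was also lost without the filter on low values. Tubb4a, a brain beta-tubulin, rose by 0.43 ± 0.08 with erinacine S and 0.40 ± 0.08 with DMSO, and the broadly expressed Tubb4b by 0.48 ± 0.11 and 0.61 ± 0.11 (log2, SE). Tubb2b, the most abundant beta-tubulin, averaged 4830 ± 71.2 TPM with erinacine S at 48 h and 3917 ± 524 TPM with erinacine S at 16 h (SD, n = 3 each). Its log2 fold change of 0.31 narrowly missed the threshold (limma, adjusted p = 0.0501), as it did in DMSO with 0.30 (adjusted p = 0.0574). Tubb5, the general beta-tubulin of dividing and non-dividing cells, differed by 0.17 and 0.20 and was not called.

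Gamma-tubulin went the other way. Tubg1 (ENSMUSG00000035198, chromosome 11, 101119938 to 101126419) encodes the subunit of the rings that start new microtubules. Tubg1 levels with erinacine S were 51.0, 59.5 and 59.7 TPM at 48 h, against 81.2, 67.0 and 68.1 TPM at 16 h. The DMSO libraries had 53.0, 56.0 and 60.2 TPM at 48 h, against 65.2, 66.8 and 65.3 TPM at 16 h. Every 48 h library was below every 16 h library. Tubg1 was the 1 gene of the 44 called lower, with erinacine S (log2 fold change -0.34 ± 0.09, SE; limma, adjusted p = 0.0126), and it did not pass with DMSO (-0.22 ± 0.09, adjusted p = 0.0720). The erinacine S call was lost without replicate 1 of both erinacine S groups, at -0.18 and an adjusted p of 0.0714. Tubd1, the delta-tubulin of centrioles, averaged 3.18 ± 0.358 TPM with erinacine S at 48 h and 3.82 ± 0.691 TPM with erinacine S at 16 h, with no call.

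Of the 9 classical MAPs, Map1a, Map1b, Map2, Map6 and Mapt were higher at 48 h under both treatments. Map1a, a MAP that accumulates as neurons mature (ENSMUSG00000027254, chromosome 2, 121289600 to 121310832), had the largest fold change of the 44 genes. The erinacine S libraries had 37.8, 29.7 and 24.5 TPM of Map1a at 48 h, against 17.4, 12.4 and 13.6 TPM at 16 h. With DMSO they were 29.9, 26.6 and 30.4 TPM at 48 h, against 13.9, 12.9 and 10.2 TPM at 16 h. The lowest 48 h value was above the highest 16 h value under each treatment, and the log2 fold change was 1.03 ± 0.16 with erinacine S and 1.18 ± 0.16 with DMSO (SE; limma, adjusted p = 0.000938 and 0.000354). On the TPM scale the 48 h mean was 2.12 times the 16 h mean with erinacine S and 2.35 times with DMSO. The log2 value with erinacine S was 0.87 without replicate 1 of its 48 h group.

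Mapt (ENSMUSG00000018411, chromosome 11, 104231390 to 104332090), which encodes tau of axonal microtubules, was the most abundant MAP and had the smallest p of the 44 genes in both time comparisons. With erinacine S, Mapt stood at 1285, 1090.1 and 1031 TPM at 48 h, against 734, 635 and 675 TPM at 16 h. In DMSO the values were 1015, 1002 and 1048 TPM at 48 h, against 698, 629 and 618 TPM at 16 h. The DMSO 48 h libraries were close together and above all DMSO 16 h libraries. The log2 fold change was 0.73 ± 0.09 with erinacine S (SE; limma, adjusted p = 0.000209) and 0.66 ± 0.09 with DMSO (adjusted p = 0.000336). Without replicate 1 of the 48 h erinacine S group the erinacine S value was 0.64 (adjusted p = 0.000339).

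Map1b, the MAP of early axon growth (ENSMUSG00000052727, chromosome 13, 99421464 to 99516602), was higher as well. Map1b levels with erinacine S were 709.6, 568 and 438 TPM at 48 h, against 327, 317 and 361 TPM at 16 h. The DMSO libraries had 492, 466 and 495 TPM at 48 h, against 326, 323 and 279 TPM at 16 h. Replicate 1 of the 48 h erinacine S group was the highest of all 12 libraries. The log2 fold changes were 0.74 ± 0.14 with erinacine S and 0.65 ± 0.14 with DMSO (SE; limma, adjusted p = 0.00220 and 0.00410), and without that library the erinacine S value was 0.58 (adjusted p = 0.00371). Map6, which makes microtubules resistant to cold, rose by 0.61 ± 0.13 with erinacine S and 0.57 ± 0.13 with DMSO (log2, SE). Map2, the main MAP of dendrites, rose by 0.35 ± 0.08 and 0.29 ± 0.08. It averaged 651 ± 75.7 TPM with erinacine S at 48 h and 509 ± 4.93 TPM with erinacine S at 16 h (SD, n = 3 each). The Map2 call with DMSO was lost in 4 of the 12 fits that left out a library. Map4, found in most tissues, and Map7d1, a relative of the kinesin partner Map7, were not called, at 0.21 and -0.02 with erinacine S. Map7 itself was low, at 1.77 ± 0.130 TPM in DMSO at 48 h and 0.981 ± 0.262 TPM in DMSO at 16 h. Its DMSO call was lost without replicate 1 or 3 of the 16 h or any library of the 48 h DMSO group, with log2 values down to 0.18 over all settings. That call was also lost without the filter and with the replicate block.

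**Figure D2:**
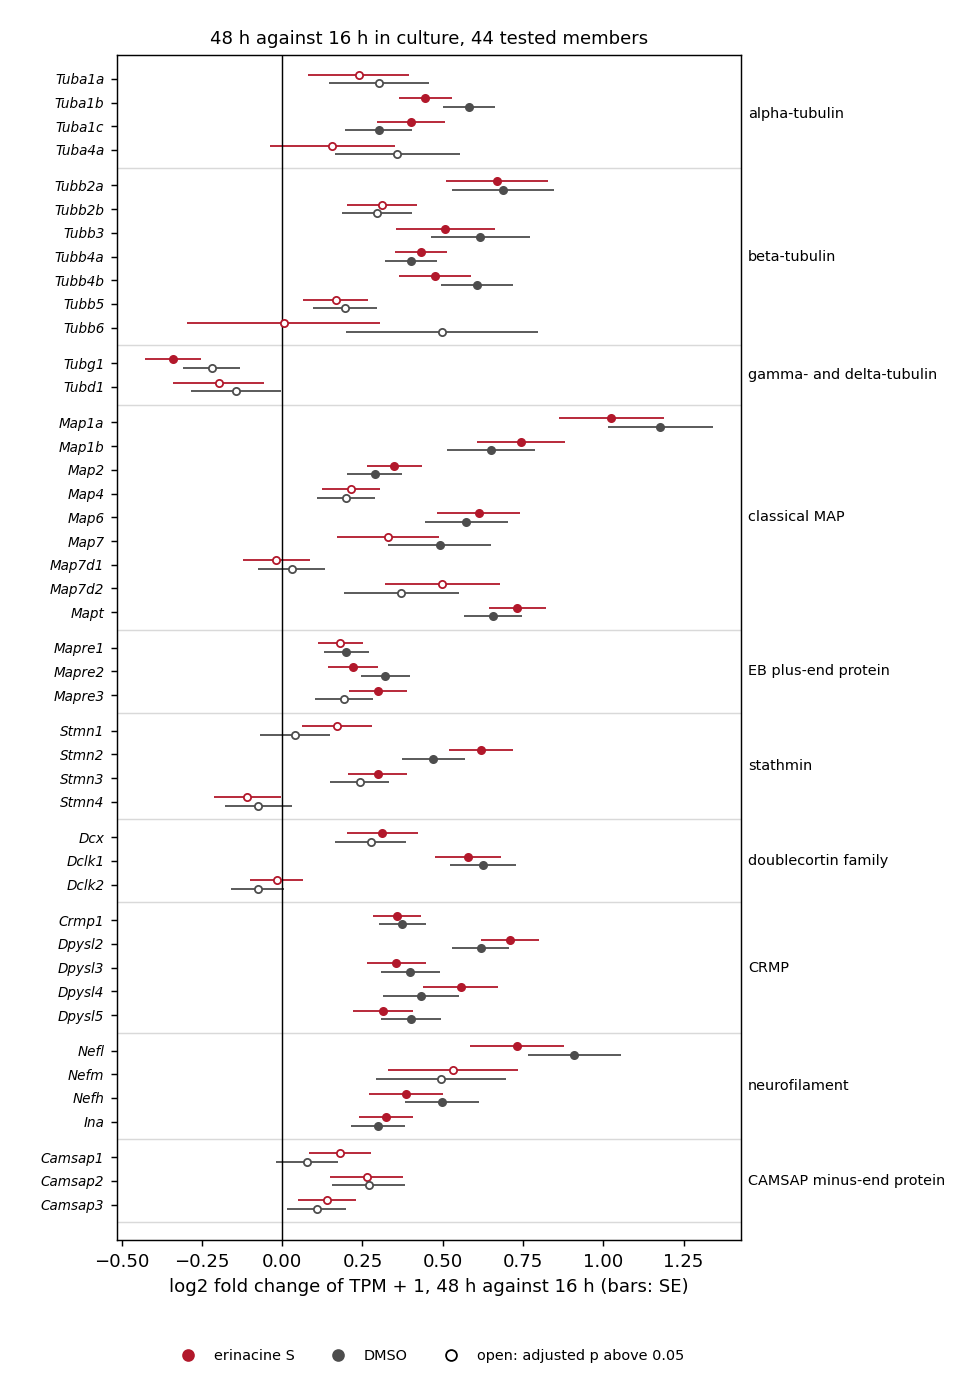
Log2 fold change of TPM + 1 at 48 h against 16 h for the 44 tested genes, grouped by role, with erinacine S in red above DMSO in grey; bars are standard errors and filled points have an adjusted p of 0.05 or less. Points lie right of 0 for 39 genes with erinacine S and 40 with DMSO, with Map1a farthest at 1.03 and 1.18, and Tubg1 is the filled point left of 0.

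The 3 end-binding proteins, which ride on growing plus ends, had small log2 values. Mapre2 (EB2) was the most abundant, at 275 ± 27.7 TPM with erinacine S at 48 h and 235 ± 8.60 TPM with erinacine S at 16 h (SD, n = 3 each). It was called in both comparisons, at 0.22 ± 0.08 with erinacine S and 0.32 ± 0.08 with DMSO (log2, SE; limma, adjusted p = 0.0478 and 0.00809). The erinacine S call was lost in 8 of the 12 fits that left out a library, without the filter and under a robust variance model. Mapre1 (EB1) and Mapre3 (EB3), the neuronal form, had log2 values of 0.18 and 0.30 with erinacine S and 0.20 and 0.19 with DMSO. The Mapre1 call with DMSO was lost in 9 of those 12 fits and under 4 other alternatives. The Mapre3 call with erinacine S was lost in 3 of the 12 and without the filter. The minus-end proteins Camsap1, Camsap2 and Camsap3 were not called, with log2 values of 0.08 to 0.27 over both treatments.

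The stathmins split by member. Stmn2, a membrane-bound stathmin of growth cones (ENSMUSG00000027500, chromosome 3, 8509360 to 8561606), was higher at 48 h under both treatments. The erinacine S libraries had 1203, 1023 and 1046 TPM of Stmn2 at 48 h, against 716, 675 and 734 TPM at 16 h. With DMSO they were 908, 1017 and 973 TPM at 48 h, against 742, 598 and 758 TPM at 16 h. No 16 h library reached the 48 h libraries, and the log2 fold change was 0.62 ± 0.10 with erinacine S and 0.47 ± 0.10 with DMSO (SE; limma, adjusted p = 0.000943 and 0.00383). The Stmn2 value with erinacine S was 0.55 without replicate 1 of its 48 h group. Stmn1, the cytosolic stathmin and the most abundant of the 4, was not called. With erinacine S, Stmn1 stood at 3618, 4133 and 4067 TPM at 48 h, against 3205, 3589 and 3699.9 TPM at 16 h. In DMSO the values were 3548, 3723 and 3631 TPM at 48 h, against 3479.6, 3133 and 4054 TPM at 16 h. The times overlapped under both treatments, and the log2 values were 0.17 and 0.04. Stmn4, another neuronal stathmin, was not called either, at -0.11 with erinacine S and -0.08 with DMSO. Stmn3 stood between them at 0.30 and 0.24, called with erinacine S (adjusted p = 0.0304) and not with DMSO (adjusted p = 0.0658). The Stmn3 call was lost in 5 of the 12 fits that left out a library, under quantile normalization and without the filter.

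In the doublecortin family, Dclk1, a doublecortin-like protein with a kinase domain (ENSMUSG00000027797, chromosome 3, 55242364 to 55539068), was higher at 48 h. Dclk1 levels with erinacine S were 346, 270.4 and 248 TPM at 48 h, against 186, 194 and 193 TPM at 16 h. The DMSO libraries had 287, 278 and 294 TPM at 48 h, against 199.6, 187 and 171 TPM at 16 h. The times did not overlap. The log2 fold change was 0.58 ± 0.10 with erinacine S and 0.63 ± 0.10 with DMSO (SE; limma, adjusted p = 0.00180 and 0.00101), and 0.44 with erinacine S without replicate 1 of its 48 h group. Dcx, the doublecortin of migrating young neurons, was the most abundant, at 627 ± 92.8 TPM with erinacine S at 48 h and 503 ± 49.7 TPM with erinacine S at 16 h (SD, n = 3 each). It was called with erinacine S (log2 0.31 ± 0.11, SE; limma, adjusted p = 0.0491) and not with DMSO (0.28 ± 0.11, adjusted p = 0.0730). The Dcx call was lost in 9 of the 12 fits that left out a library. It was also lost without the filter, under quantile normalization and with the replicate block. Dclk2 was not called, at -0.02 and -0.08.

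All 5 CRMPs, which bind tubulin and act in axon growth, were called higher at 48 h under both treatments. Dpysl2 (CRMP2; ENSMUSG00000022048, chromosome 14, 66802864 to 66868688), which carries tubulin dimers to growing axons, had the largest change. The erinacine S libraries had 350.4, 287 and 276 TPM of Dpysl2 at 48 h, against 194, 179 and 182 TPM at 16 h. With DMSO they were 266, 287 and 295 TPM at 48 h, against 198, 174 and 179.7 TPM at 16 h. The 48 h libraries were all above the 16 h libraries. The log2 fold change was 0.71 ± 0.09 with erinacine S and 0.62 ± 0.09 with DMSO (SE; limma, adjusted p = 0.000237 and 0.000469). The Dpysl2 value with erinacine S was 0.60 without replicate 1 of its 48 h group. The most abundant CRMP, Dpysl3 (CRMP4), averaged 2059 ± 224 TPM with erinacine S at 48 h and 1605 ± 86.3 TPM with erinacine S at 16 h (SD, n = 3 each), a log2 change of 0.35. Crmp1, Dpysl5 (CRMP5) and Dpysl4 (CRMP3) changed by 0.36, 0.31 and 0.56 with erinacine S and by 0.37, 0.40 and 0.43 with DMSO. With erinacine S the Dpysl5 call was lost in 4 of the 12 fits that left out a library, under quantile normalization and without the filter, and the Dpysl3 call in 1 of those fits. With DMSO the Dpysl4 call was lost in 1 of those fits and the Dpysl3 call under quantile normalization.

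Of the intermediate filament genes, Nefl, Nefh and Ina were called higher at 48 h under both treatments. Nefl, the light neurofilament chain that forms the core of the filament (ENSMUSG00000022055, chromosome 14, 68083863 to 68089095), had the largest change of them. With erinacine S, Nefl stood at 42.0, 44.0 and 38.0 TPM at 48 h, against 27.9, 19.9 and 26.5 TPM at 16 h. In DMSO the values were 46.3, 48.7 and 45.5 TPM at 48 h, against 28.2, 19.1 and 27.1 TPM at 16 h. Both treatments separated the times without overlap, with log2 fold changes of 0.73 ± 0.15 with erinacine S and 0.91 ± 0.15 with DMSO (SE; limma, adjusted p = 0.00332 and 0.000837). Nefm, the medium chain, had log2 values of 0.53 and 0.50 and was not called (adjusted p = 0.0663 and 0.0799).

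Nefh, the heavy chain (ENSMUSG00000020396, chromosome 11, 4938754 to 4948064), was the lowest of the 4 genes. Nefh levels with erinacine S were 2.42, 1.96 and 2.04 TPM at 48 h, against 1.37, 1.30 and 1.53 TPM at 16 h. The DMSO libraries had 2.93, 2.62 and 2.89 TPM at 48 h, against 1.63, 1.78 and 1.69 TPM at 16 h. Every 48 h value exceeded every 16 h value of its treatment, at log2 fold changes of 0.39 ± 0.12 with erinacine S and 0.50 ± 0.12 with DMSO (SE; limma, adjusted p = 0.0245 and 0.00681), on a scale that understates changes of so low a gene. The erinacine S call was lost without replicate 2 of the 16 h group or replicate 1 of the 48 h group. Ina, alpha-internexin, was the most abundant, at 345 ± 38.1 TPM with erinacine S at 48 h and 275 ± 10.2 TPM with erinacine S at 16 h (SD, n = 3 each). It changed by 0.32 with erinacine S and 0.30 with DMSO, and these calls were lost in 1 and 3 of the 12 fits that left out a library.

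**Figure D3:**
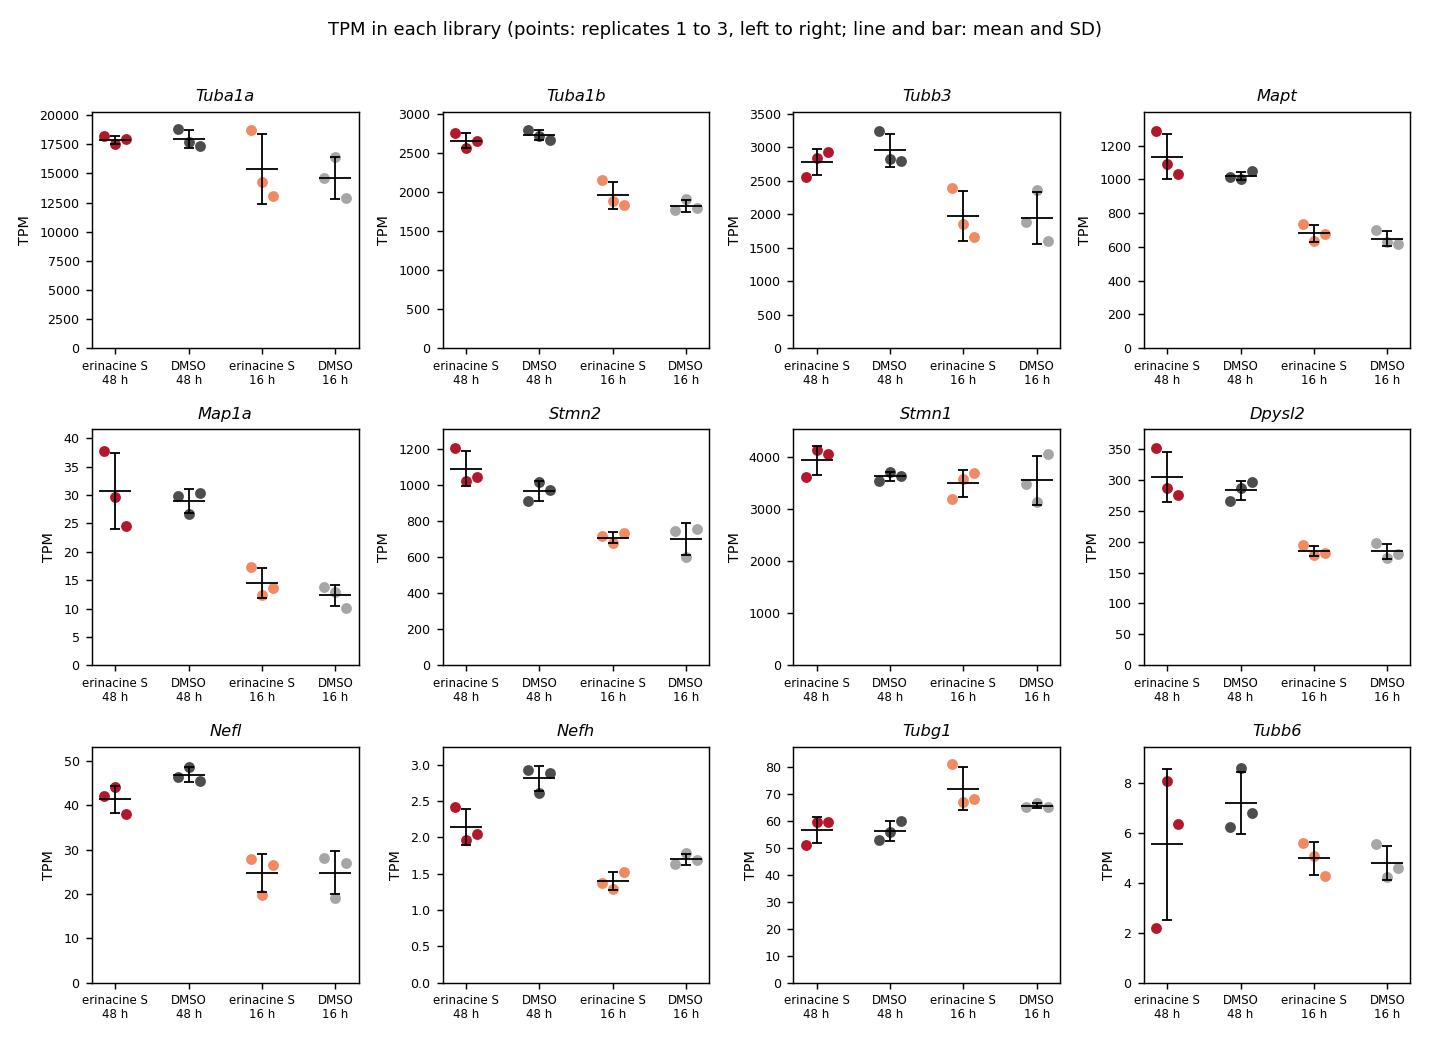
TPM in each library for 12 of the genes, as points for replicates 1 to 3 with the group mean and SD, in the order erinacine S 48 h, DMSO 48 h, erinacine S 16 h and DMSO 16 h; each axis starts at 0. Mapt, Map1a, Stmn2, Dpysl2 and Nefl separate 48 h from 16 h without overlap, Tubg1 is lower at 48 h, Stmn1 overlaps, and Nefh is lower with erinacine S than with DMSO at each time.

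Genes of a class changed by different amounts, and their shares of the class differed with time. Among beta-tubulins, Tubb5 held 21.4% ± 0.438 of the class TPM with erinacine S at 48 h and 24.8% ± 0.682 with erinacine S at 16 h (SD, n = 3 each). In DMSO its share was 21.4% ± 0.719 at 48 h and 24.8% ± 1.22 at 16 h. The Tubb2a share moved the other way, to 17.4% ± 1.31 with erinacine S at 48 h, against 14.2% ± 1.08 with erinacine S at 16 h. Within the MAPs, Mapt held 36.1% ± 0.959 with erinacine S at 48 h and 31.1% ± 1.24 with erinacine S at 16 h, and Map7d1 held 8.46% ± 1.23 and 12.2% ± 0.340. Stmn2 held 16.3% ± 1.75 of the stathmin TPM with erinacine S at 48 h and 12.3% ± 0.942 with erinacine S at 16 h. Dclk1 held 26.5% ± 1.01 and 22.1% ± 0.884 of its family at those times. None of these shares overlapped between the times under either treatment. Tuba1a held 84.8% ± 0.0143 of the alpha-tubulin TPM with erinacine S at 48 h and 86.4% ± 1.04 with erinacine S at 16 h, a small difference that also did not overlap. Shares are given as a description, without a test.

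**Figure D4:**
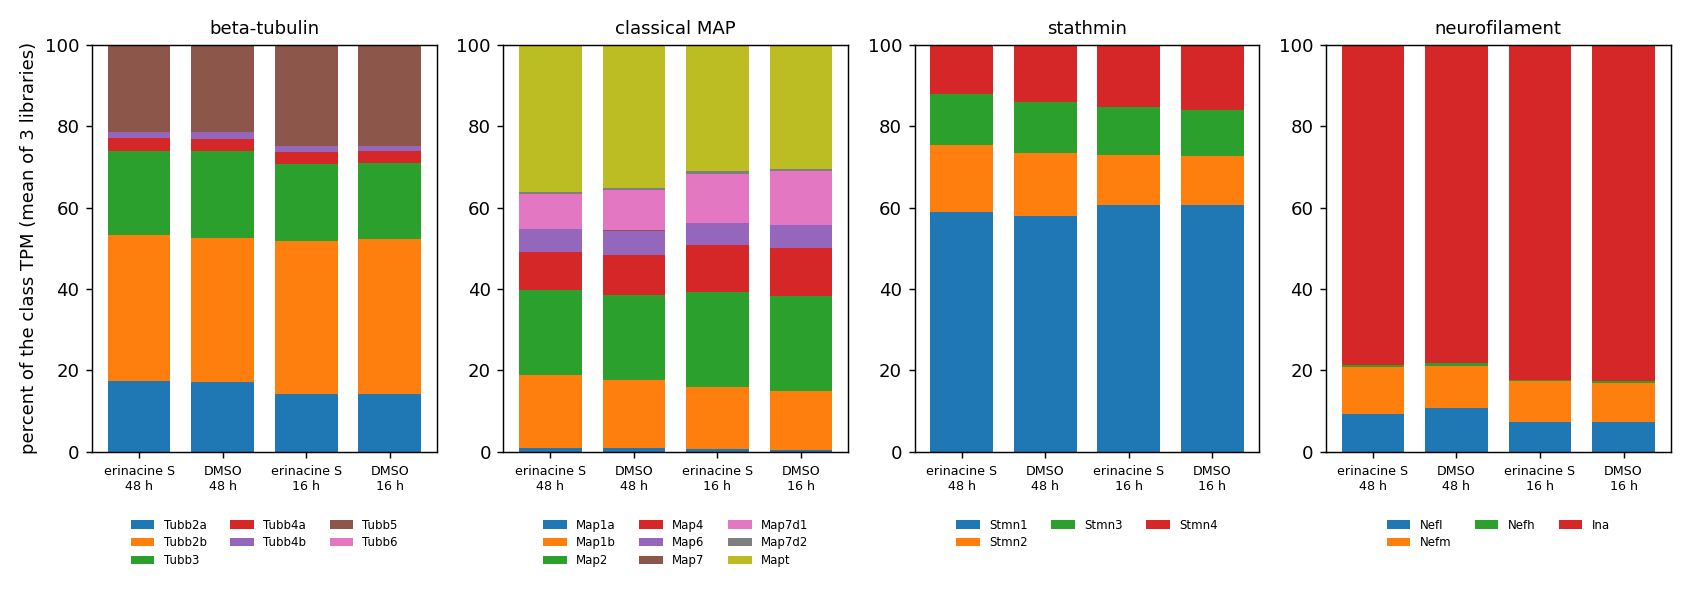
Percent of the class TPM taken by each gene, as stacked means of 3 libraries, for beta-tubulins, classical MAPs, stathmins and neurofilament genes in the 4 groups. At 48 h the Tubb2a, Mapt and Stmn2 segments are larger than at 16 h and the Tubb5 and Map7d1 segments smaller, under both treatments.

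The comparison of erinacine S with DMSO asks what the compound did at a given time. At 48 h none of the 44 tested genes was called higher or lower by limma, where 0.134% of all tested genes were called (3 higher and 18 lower). One gene, Nefh, had an unadjusted p of 0.05 or less, a level reached by 8.96% of all tested genes. The libraries lay wholly above DMSO for 4 genes (10.5% of all tested genes) and wholly below for 3 (8.74%). The median log2 fold change was 0.02, with 0.01 for all tested genes, and the values ran from -0.45 to 0.21. The 95% intervals lay within 0.5 of 0 on the log2 scale for 40 of the 44 genes. The number of called genes over the whole table depended on replicate 1 of the 48 h erinacine S group, since 114 of all tested genes were called without it, but none of the 44 genes was.

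Nefh had 2.42, 1.96 and 2.04 TPM with erinacine S at 48 h, against 2.93, 2.62 and 2.89 TPM with DMSO at 48 h. The highest erinacine S value was below the lowest DMSO value. The log2 fold change was -0.28 ± 0.12 (SE; limma, adjusted p = 0.508). Of the alternatives run, it passed with library weights alone, at -0.353 (limma, adjusted p = 0.0177). That fit also called far more of all tested genes than the main fit. Without replicate 1 of the erinacine S group the Nefh value was -0.345 (limma, adjusted p = 0.363). Nefl also lay wholly below DMSO, with 42.0, 44.0 and 38.0 TPM with erinacine S and 46.3, 48.7 and 45.5 TPM with DMSO, a log2 value of -0.18 ± 0.15 (SE; adjusted p = 0.753). The third such gene was Dpysl5, at -0.06. Nefm and Ina did not share this direction, at 0.09 and 0.01.

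Stmn2 had 1203, 1023 and 1046 TPM with erinacine S at 48 h, against 908, 1017 and 973 TPM with DMSO at 48 h. The groups were just separate, with a log2 value of 0.17 ± 0.10 (SE; limma, adjusted p = 0.645), and the value was 0.10 without replicate 1 of the erinacine S group. Stmn3, Mapre3 and Dpysl4 were the other genes wholly above DMSO, at 0.08, 0.14 and 0.17. Mapt and Map1b had values of 0.15 ± 0.09 and 0.21 ± 0.14 with overlapping libraries, and these were 0.05 and 0.04 without replicate 1 of the erinacine S group. Genes for which that library was highest of the 12 included Mapt, Map1a, Map1b, Map2, Stmn2, Stmn3, Dcx, Dclk1, Dpysl2 and Dpysl4. That library was lowest for Tubg1 and for the progenitor, astrocyte, microglial and dividing-cell markers given above. The part of those markers in the values was not tested.

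Tubb6, a beta-tubulin found at low levels in neurons, had the most negative log2 value of the 44 genes, -0.45 ± 0.30 (SE; limma, adjusted p = 0.695). Its values were 2.18, 8.08 and 6.34 TPM with erinacine S at 48 h, against 6.22, 8.59 and 6.78 TPM with DMSO at 48 h. Only replicate 1 of the erinacine S group was low, the library with 243.8 TPM of progenitor markers where the other 48 h libraries had 718.7 to 793.8 TPM. Without it the log2 value was 0.00. The abundant tubulins were close to even, at -0.00273 for Tuba1a, -0.04 for Tuba1b, 0.01 for Tubb2b and -0.09 for Tubb3. The 95% interval of Tuba1a ran from -0.343 to 0.338 and that of Tubb3 from -0.425 to 0.245.

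**Figure D5:**
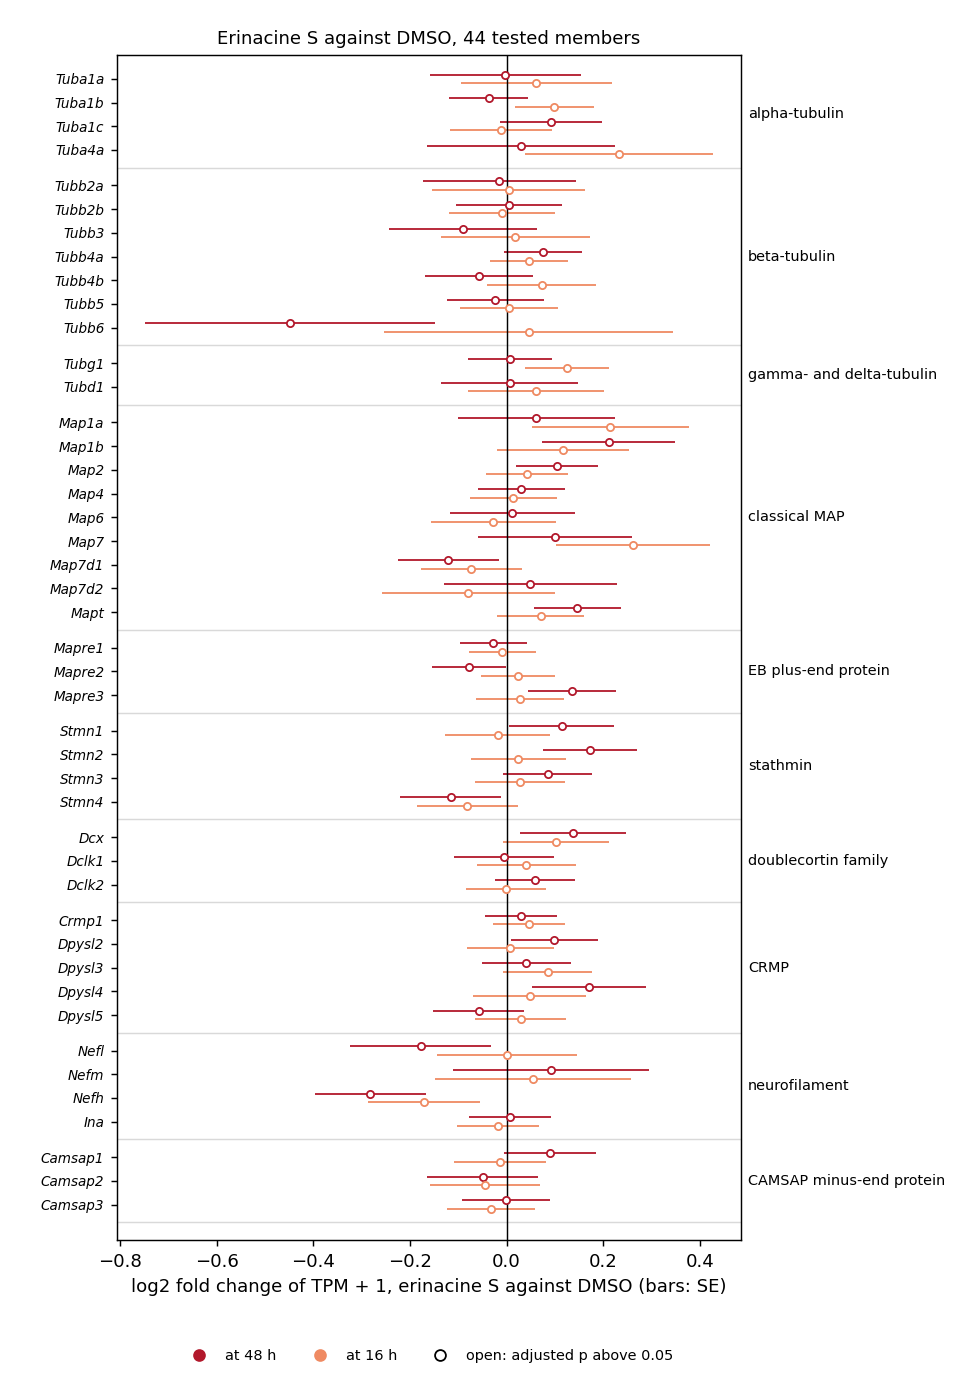
Log2 fold change of TPM + 1 with erinacine S against DMSO for the 44 tested genes, at 48 h in red above 16 h in orange, with standard errors; every point is open, since no adjusted p is 0.05 or less. The widest departures from 0 are Tubb6 and Nefh below 0 at 48 h (-0.45 and -0.28) and Map7 above 0 at 16 h (0.26).

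At 16 h none of the 44 tested genes was called by limma and none had an unadjusted p of 0.05 or less. This fit had no replicate block, although libraries of the same number deviated together at 16 h. Among all tested genes 0% were called and 1.29% had such a p. The libraries lay wholly above DMSO for 1 gene (2.62% of all tested genes) and wholly below for 1 (1.56%). The median log2 fold change was 0.03, with 0.01 for all tested genes, over a range of -0.17 to 0.26, and the 95% intervals of 40 of the 44 genes lay within 0.5 of 0. Nefh was 1 of the 2 separate genes, with 1.37, 1.30 and 1.53 TPM with erinacine S at 16 h, against 1.63, 1.78 and 1.69 TPM with DMSO at 16 h. Each erinacine S value was below each DMSO value, with a log2 value of -0.17 ± 0.12 (SE; limma, adjusted p = 0.9999). Tubg1 was the other, with 81.2, 67.0 and 68.1 TPM with erinacine S, against 65.2, 66.8 and 65.3 TPM with DMSO, at 0.13 ± 0.09 (SE; adjusted p = 0.9999). Map7, Map1a and Tuba1b had values of 0.26, 0.21 and 0.10 with overlapping libraries. Without replicate 1 of the erinacine S group Tubg1 was at 0.04, Map1a at 0.08 and Tuba1b at 0.03. The alpha-tubulin sum was 0.07 higher in log2 ratio with erinacine S, but -0.08 without that library.

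The effect of erinacine S at 48 h minus that at 16 h was not called for any of the 44 genes by limma, and none had an unadjusted p of 0.05 or less. Among all tested genes 0% were called and 2.77% had such a p. The genes with the smallest p were Tuba1b (-0.14 ± 0.12), Tubb6 (-0.49 ± 0.42), Stmn2 (0.15 ± 0.14), Tubg1 (-0.12 ± 0.12) and Mapre2 (-0.10 ± 0.11), as log2 differences with SE. Without replicate 1 of the 48 h erinacine S group Tubb6 was at -0.041, Stmn2 at 0.08, Tubg1 at -0.045 and Mapre2 at -0.18. Without replicate 1 of the 16 h erinacine S group Tuba1b was at -0.06 and Tubg1 at -0.03. The 95% intervals of 33 of the 44 genes lay within 0.5 of 0. This is the same test as that of a different time course between the treatments.

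Of the 45 shares within classes, 10 did not overlap between the treatments at 48 h and 2 at 16 h. Those 2, of Nefh and Stmn4, had no overlap at both times and were picked after the shares were seen. For comparison, the levels of all tested genes lay wholly above DMSO for 10.5% and wholly below for 8.74% at 48 h. At 16 h these were 2.62% and 1.56%. Shares within a class also depend on each other, so they are not separate observations. Nefh held 0.517%, 0.444% and 0.501% of the neurofilament-class TPM with erinacine S at 48 h, against 0.666%, 0.626% and 0.633% with DMSO at 48 h. At 16 h it held 0.389%, 0.415% and 0.452% with erinacine S, against 0.458%, 0.531% and 0.526% with DMSO. At each time every erinacine S share was below every DMSO share. Stmn4 held 13.4%, 11.6% and 11.7% of the stathmin TPM with erinacine S at 48 h, against 13.7%, 13.9% and 14.6% with DMSO at 48 h. At 16 h it held 14.8%, 15.0% and 15.9% with erinacine S, against 16.0%, 15.9% and 15.9% with DMSO. The gap for Stmn4 at 16 h was narrow, and neither gene was called on its own level at either time.

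Other genes of the microtubule system, from lists of gamma-tubulin complex, folding, severing, modifying and motor genes, were called with time about as often as all tested genes. Of 66 tested genes among the 71 listed, 11 were higher and 8 lower at 48 h with erinacine S, where 15.1% of all tested genes were higher and 15.5% lower. With DMSO 10 were higher and 11 lower, where 16.1% of all tested genes were higher and 16.6% lower. Their median log2 fold change was -0.01 with erinacine S and 0.01 with DMSO, near the -0.03 of all tested genes. Of the 8 tested genes of the gamma-tubulin complex list, which includes the minor tubulins Tubg2 and Tube1, 4 were lower and none was higher under each treatment. Tube1 (epsilon-tubulin), Tubgcp2 and Tubgcp4 were lower in both, with log2 values of -0.34, -0.24 and -0.44 with erinacine S and -0.41, -0.20 and -0.30 with DMSO. Nedd1, which brings gamma-tubulin to the spindle and centrosome, was called lower with erinacine S (-0.67), and Tubg2 with DMSO (-0.52).

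Of 14 tested tubulin-modifying enzymes, 4 were higher and 1 lower with erinacine S, and 3 were higher and 3 lower with DMSO. For this list and those below, the shares of all tested genes were 15.1% higher and 15.5% lower with erinacine S. With DMSO these shares were 16.1% and 16.6%. Ttl, the tyrosine ligase, Agtpbp1, which trims polyglutamate chains, and Ttll7, a glutamate ligase acting on beta-tubulin, were higher at 48 h under both treatments. Their log2 values were 0.40, 0.49 and 1.02 with erinacine S and 0.39, 0.47 and 0.68 with DMSO. Ttll1, another glutamate ligase, was called lower in both (-0.23 and -0.27), and Vash2, a tubulin detyrosinating enzyme, higher with erinacine S (0.27). Agbl5, a deglutamylase, was called lower with DMSO (-0.31), and so was Atat1, the alpha-tubulin acetyltransferase (-0.33; adjusted p = 0.00295). Of 20 tested dynein and dynactin genes, 5 were higher and 2 lower under each treatment, with Dync1i1, the neuronal dynein intermediate chain, at 0.46 and 0.62 and Pafah1b1 (Lis1), a dynein regulator, at 0.45 and 0.44. Of 18 severing and plus-end factors, Nav2 and Clip2 were higher and Katna1, the katanin severing subunit, lower under both. Of 6 folding cofactors, Tbce was called lower with DMSO (-0.38).

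None of the 66 related genes was called with erinacine S against DMSO at 48 h or at 16 h by limma, with 2 (Tubg2 and Ttll7) and 1 (Ttll7) at an unadjusted p of 0.05 or less, which 8.96% and 1.29% of all tested genes had. Ttll7 is picked here after its values were seen. It had 8.35, 8.41 and 7.56 TPM with erinacine S at 16 h, against 15.6, 15.2 and 14.5 TPM with DMSO at 16 h. At 48 h it had 17.5, 22.3 and 13.6 TPM with erinacine S, against 25.2, 24.5 and 24.9 TPM with DMSO. The erinacine S libraries were all below the DMSO libraries at both times, at log2 fold changes of -0.49 ± 0.13 at 48 h and -0.82 ± 0.13 at 16 h (SE; limma, adjusted p = 0.263 and 0.834).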

How the data were processed

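Gene abundance was deposited by the authors as TPM, 1 table with 12 libraries. The submitters' processing notes name StringTie 2.1.3 and HISAT2 on GRCm38.p5, besides SAMtools, Trimmomatic 0.36, FastQC and bcl2fastq 2.20; the annotation release is not given in the sources used here. TPM keeps no read depth, so the depth and its counting error are unknown. Values were set on the log2(TPM + 1) scale, which understates changes of low genes. Genes with a mean of at least 1 TPM (15623) entered 1 limma 3.58.1 fit of the 4 groups (R 4.3.3) with an intensity trend, and p-values were adjusted by Benjamini-Hochberg over all of them, with calls at 0.05. The genes and lists were chosen with earlier results of these data known. Named genes were, per comparison, at most 8 called per direction by smallest p (the 5 with the smallest p where fewer than 5 were called) and the most abundant gene of each class; the others are given as members of their class. On simulated data with 100 genes changed by each size among 15623 genes, the fit recovered 53% of log2 changes of 0.5 and 91% of log2 changes of 1, with 4.64% false calls. The changed genes were drawn from those of higher level, so low genes such as Nefh, Map7 and Tubb6 are not covered. The noise was independent with the same spread in every library, so no outlying library and no pairing was simulated. The adjusted threshold also depends on how many genes differ. With erinacine S against DMSO only 21 of all tested genes were called at 48 h and 0 at 16 h. The recovery in the simulation therefore need not hold for those comparisons and may be lower there. Libraries of 1 number deviated together at 16 h (correlations 0.48, 0.185 and 0.51), which may pair them, and not at 48 h (-0.0219, 0.107 and -0.192). The value of 0.185 for replicate 2 was little above the 0.109 of an unmatched pair. The main fit had no replicate block, so its 16 h standard errors and p-values leave out any pairing. Alternatives changed the pseudocount, filter, scaling, replicate block, variance model, library weights and libraries included.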

Additional observations from a re-analysis of the deposited data

How the results depend on the processing

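Calls on treatment were 0 for these genes under every alternative run except library weights, where Nefh was called lower at 48 h (1 gene called lower). With those weights 1599 of all tested genes were called in the same comparison. The number called lower at 48 h against 16 h with DMSO was 1 under quantile normalization, library weights, a fit of only the libraries compared and, added after seeing the data, without replicate 1 of both erinacine S groups, and 0 to 1 when 1 library was left out. With erinacine S it was 2 under library weights and 0 without replicate 1 of both erinacine S groups. The number called higher ran from 15 to 26 with erinacine S, lowest without replicate 2 of the 16 h group, and from 18 to 30 with DMSO, when 1 library was left out, in fits that called 3105 to 5042 and 3417 to 5993 of all tested genes. With the replicate block it was 24 with erinacine S and 23 with DMSO, where Dcx lost its call with erinacine S, Map7 and Mapre1 lost theirs with DMSO, and Stmn3 gained one with DMSO. Direction reversed for small values without a call. For Tubb6 at 48 h it was 0.0684 with library weights, 0.00474 without replicate 1 of the 48 h erinacine S group and -0.751 to 0.00474 over all fits without 1 library. For Map1a at 16 h it was -0.00688 with library weights. For the difference between times, Tuba1b was 0.00876 with quantile normalization, Tubb6 was 0.106 with library weights and 0.0335 without replicate 1 of both erinacine S groups, and Tubg1 was 0.0202 and 0.0423 under the same alternatives. Of 26 calls with erinacine S and 24 with DMSO, 15 and 17 held in every alternative that could be fitted and every fit without 1 library. The block within each time could not be estimated for comparisons of times. The median log2 change of the 44 genes ran from 0.29 to 0.396 with erinacine S and 0.342 to 0.388 with DMSO when 1 library was left out. Over all tested genes, the 21 called with erinacine S against DMSO at 48 h became 1599 with library weights and 9 to 114 when 1 library was left out.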
